A study of Mus musculus with 12 samples.

Results

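The hepatocyte response to 2,3,7,8-tetrachlorodibenzo-p-dioxin (TCDD) was compared between cells that carry the mouse aryl hydrocarbon receptor (AHR) and cells that express the human receptor, gene by gene, as the TCDD effect in one genotype minus the TCDD effect in the other. All 12 arrays of the series entered the comparison, and 18193 genes were measured. Wild-type cells came from C57BL6/J mice, whose receptor genotype the design text writes as Ahrb/b. The humanised cells came from mice labelled hAHR. These carry the mouse allele Ahrtm3.1Bra on a B6.Cg background together with the transgenes Alb-cre and Ttr-AHR (1Ghp), that is, Cre driven by the albumin promoter and human AHR driven by the transthyretin promoter. Both promoters act in hepatocytes, so the human receptor is expressed under a liver promoter that is not its own. Primary hepatocytes of either genotype were held for 48 h in a medium that itself contained dimethyl sulfoxide (DMSO) and dexamethasone, and were then given 10 nM TCDD or the DMSO vehicle for 6 h. Each of the 4 groups (C57BL6/J DMSO, C57BL6/J TCDD, hAHR DMSO, hAHR TCDD) held 3 arrays, and the study's design text gives each array to a separate mouse. Some DMSO and TCDD arrays with the same replicate number resembled each other, as described below. Whether such arrays share a mouse is unclear, and the main fit treats all 12 arrays as independent. The labels used here state no age.

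AHR is a ligand-activated transcription factor of the bHLH-PAS family. Without ligand it is held in the cytosol by a chaperone complex that contains HSP90. Once TCDD binds, it moves to the nucleus, pairs with ARNT and binds DNA at the core motif GCGTG, and in liver it is best known for inducing cytochromes P450 of the CYP1 family, TIPARP and NQO1. The human receptor binds TCDD with lower affinity than the receptor of C57BL/6 mice, and its transactivation domain has diverged from the mouse form.

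The upstream windows of 4 genes described below are shown. Every match to the AHR core motif (GCGTG, or CACGC where it lies on the other strand) is in capitals. Each window covers the 250 bases before the annotated transcription start in RefSeq's annotation of GRCm38.p6, written 5′ to 3′ on the gene's own strand. Cyp1a1 (chr9:57697363-57697612, plus strand) and Cyp1a2 (chr9:57683656-57683905, minus strand) encode the classical AHR-induced monooxygenases. Tiparp (chr3:65528197-65528446, plus strand) encodes a mono-ADP-ribosyltransferase that represses AHR in turn, and Rnf39 (chr17:36942801-36943050, plus strand) encodes a RING finger protein.
Cyp1a1: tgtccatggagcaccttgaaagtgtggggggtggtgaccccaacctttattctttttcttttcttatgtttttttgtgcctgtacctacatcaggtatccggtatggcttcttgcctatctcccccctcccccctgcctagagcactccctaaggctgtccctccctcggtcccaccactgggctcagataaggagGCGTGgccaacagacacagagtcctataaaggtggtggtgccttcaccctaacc
Cyp1a2: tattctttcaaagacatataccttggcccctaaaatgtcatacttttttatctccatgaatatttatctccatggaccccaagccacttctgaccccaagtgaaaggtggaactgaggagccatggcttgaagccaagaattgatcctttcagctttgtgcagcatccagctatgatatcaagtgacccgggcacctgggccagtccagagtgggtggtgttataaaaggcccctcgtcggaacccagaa
Tiparp: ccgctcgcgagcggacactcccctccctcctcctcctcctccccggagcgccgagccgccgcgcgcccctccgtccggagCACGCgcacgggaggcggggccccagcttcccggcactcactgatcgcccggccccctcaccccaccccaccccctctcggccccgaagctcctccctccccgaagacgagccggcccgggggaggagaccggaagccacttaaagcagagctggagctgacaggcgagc
Rnf39: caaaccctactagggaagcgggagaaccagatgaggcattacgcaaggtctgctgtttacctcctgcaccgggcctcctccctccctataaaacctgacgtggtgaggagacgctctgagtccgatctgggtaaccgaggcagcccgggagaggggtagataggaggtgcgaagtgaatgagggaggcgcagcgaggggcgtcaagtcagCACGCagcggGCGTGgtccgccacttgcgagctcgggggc
The core matched once in the Cyp1a1 window, with its first base 54 bases before the start, once in the Tiparp window at 170 bases, and at 40 and 30 bases in the Rnf39 window. No match was found in the Cyp1a2 window. Such a match is common: 28.2% of 32851 windows of this length held the core on either strand, and 4.1% held the longer TNGCGTG, which none of these 4 windows contained. Of the 54 genes chosen by rule for description, 42 had a window, and 26 of these held the core in any window. Counted by gene in the same way, 30.9% of all 27025 genes held it. Of the 42, 18 were named in advance as AHR targets or as Ahr, Arnt, Ttr or Alb, and 12 of these held the core. The counts are therefore no test of enrichment.

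Intensities below are the deposited values rescaled so that the mean of each array, after removing 2% of probe sets at either end, was 150. Effects are differences of log2(rescaled intensity + 16), on which 1 stands for a 2-fold change, and a positive difference between genotypes means that the hAHR effect was the higher. Arrays of a group correlated over the brightest probe set of each gene with r from 0.958 to 0.985. Hepatocyte markers were bright in every array: the sum over the 11 measured ones ran from 45961 to 62695, and Alb, which encodes albumin, never read below 10484. Marker sums of other cell types were lower, at 3042.5 to 6957 for 20 Kupffer cell and macrophage genes and 244 to 1475.5 for 18 lymphocyte and neutrophil genes. The Kupffer cell and macrophage genes were not even among arrays. Their mean log2(rescaled intensity + 16) was 6.46 to 6.98 in hAHR replicates 2 and 3, with and without TCDD. In hAHR replicate 1 and all C57BL6/J arrays it was 5.11 to 5.57. The part of this in the results was not tested. In bulk RNA, fewer cells of a type and less RNA per cell cannot be told apart.

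The 3 C57BL6/J TCDD arrays had been deposited on another scale than the other 9, at a trimmed mean of 500 in place of 150, and rescaling removed this factor. Whatever else differed in their processing cannot be told apart from that group. One pair of arrays stood apart in another way. Xist, the RNA that silences an X chromosome in females, read 3085 and 2952 in the replicate 2 DMSO and TCDD arrays of C57BL6/J and at most 29.3 elsewhere, and the Y-linked gene Eif2s3y read 4.70 and 0.42 in the same arrays and at least 453 in the other 10. Ahr itself was also highest there. Its rescaled intensities were 261, 617 and 245 under DMSO and 243, 442 and 223 under TCDD in C57BL6/J, and 224, 193 and 236 under DMSO and 225, 193 and 216 under TCDD in hAHR. The hAHR arrays lay within or just below the range of the other C57BL6/J arrays on this mouse probe set. The labels do not say whether its probes lie in the part of Ahr that Cre removes, so the values do not check the genotype. The Cyp1a1 and Zfp36l1 results, in which the replicate 2 TCDD array stood apart from its group, are given with and without the pair.

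No gene passed the test for a difference between the genotypes. Among 18193 genes, 0 reached an adjusted p under 0.05 in limma in either direction (0% called), and the smallest adjusted p was 0.999. An unadjusted p under 0.05 was reached by 573 genes (3.15%), fewer than the 910 expected if no gene differed. The hAHR effect was higher for 170 of these (0.934% of all genes) and lower for 403 (2.22%). That split followed the scaling of the arrays: 353 were higher and 216 lower when arrays were shifted to the same median, and 266 and 297 after quantile normalization. The median difference over all genes was -0.04, and 0.07 after the shift, so a small difference of a gene or list is read against the whole. The precision of the comparison was limited by 3 arrays in each group: the median standard error of a difference was 0.31. Among the 7637 genes with a mean of at least 100 in some group, 6064 (79.4%) had a 95% interval inside 1 on either side of 0, so a 2-fold difference lay outside their intervals. Only 22 of those genes had an estimate beyond 1. Within-group spread was not equal, with a median SD of 0.26 among the C57BL6/J TCDD arrays and 0.17 to 0.19 in the other groups.

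**Figure D1:**
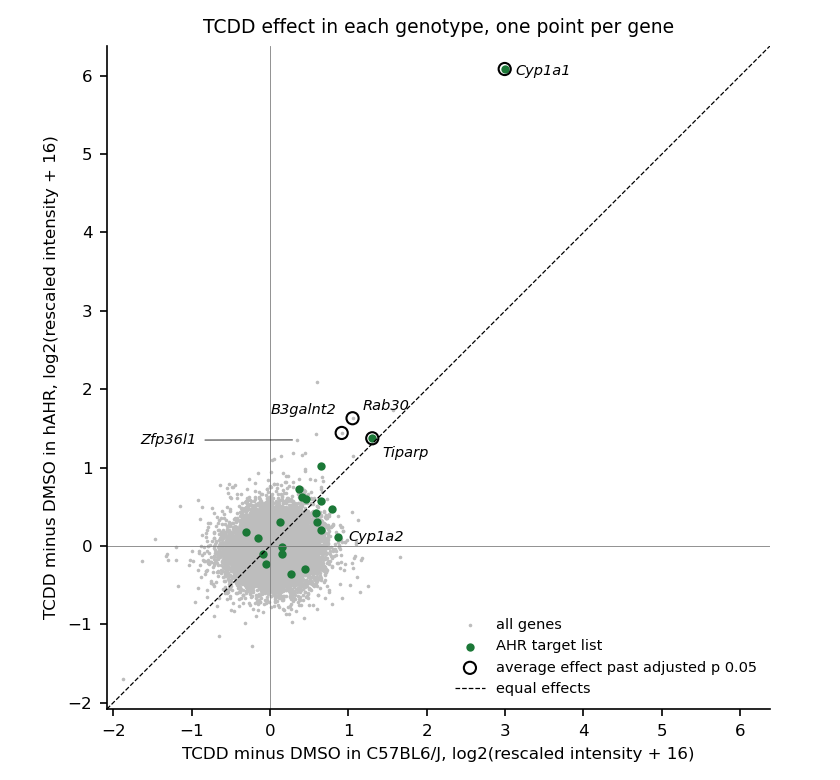
The TCDD effect in C57BL6/J (horizontal axis) is plotted against that in hAHR (vertical axis) for 18193 genes, both as log2(rescaled intensity + 16), with the 21 measured AHR target genes in green and the 4 genes called in the average over genotypes circled. Cyp1a1 stands alone at 3.00 and 6.09, Tiparp lies on the dashed line of equal effects, and most genes form a round cloud about 0.

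Cyp1a1 had the largest difference of all genes in size, and the widest interval of the genes described here. In C57BL6/J its arrays read 25.3, 24.0 and 18.5 under DMSO and 125, 2518 and 64.9 under TCDD. In hAHR they read 81.9, 63.0 and 60.5 under DMSO and 6624, 4004 and 6939 under TCDD. All TCDD arrays lay above the DMSO arrays of their genotype, and the groups did not overlap in either one. Among the C57BL6/J TCDD arrays, replicate 2 came nearest to the hAHR TCDD arrays, while replicates 1 and 3 were close to the hAHR DMSO arrays. The effect was 3.00 (95% interval 1.11 to 4.88, unadjusted p = 0.00438) in C57BL6/J, a 7.97-fold change with an adjusted p of 0.966. In hAHR it was 6.09 (95% interval 4.20 to 7.97, adjusted p = 0.0427), a 68-fold rise. Their difference was 3.09 (95% interval 0.43 to 5.75, unadjusted p = 0.0261), with an adjusted p of 0.999. Without C57BL6/J TCDD replicate 2 the difference was 4.61 with an adjusted p of 0.000179, and without both replicate 2 arrays it was 4.59 with an adjusted p of 0.000993. Over all 24 alternatives it kept its sign, from 2.13 to 4.61. It was the only gene called for a difference under any of them. The replicate 2 arrays were also those with Xist and the highest Ahr signal, and the part of these in the Cyp1a1 result was not tested.

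Cyp1a2, which lies beside Cyp1a1 in the opposite orientation on chromosome 9, had another pattern. Its intensities were 734, 429 and 611 under DMSO and 753, 898 and 1799 under TCDD in C57BL6/J, and 3352, 3001 and 2572 under DMSO and 3426, 3348 and 2848 under TCDD in hAHR. The hAHR cells were bright with and without TCDD, and their groups overlapped. In C57BL6/J every TCDD array was above every DMSO array, though the lowest of the former, 753, was close to the highest of the latter, 734. The effect was 0.87 in C57BL6/J and 0.11 in hAHR, and the difference was -0.76 (95% interval -1.58 to 0.07, unadjusted p = 0.0688), opposite in sign to that of Cyp1a1 and not past the test. It was -0.39 without C57BL6/J TCDD replicate 3.

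**Figure D2:**
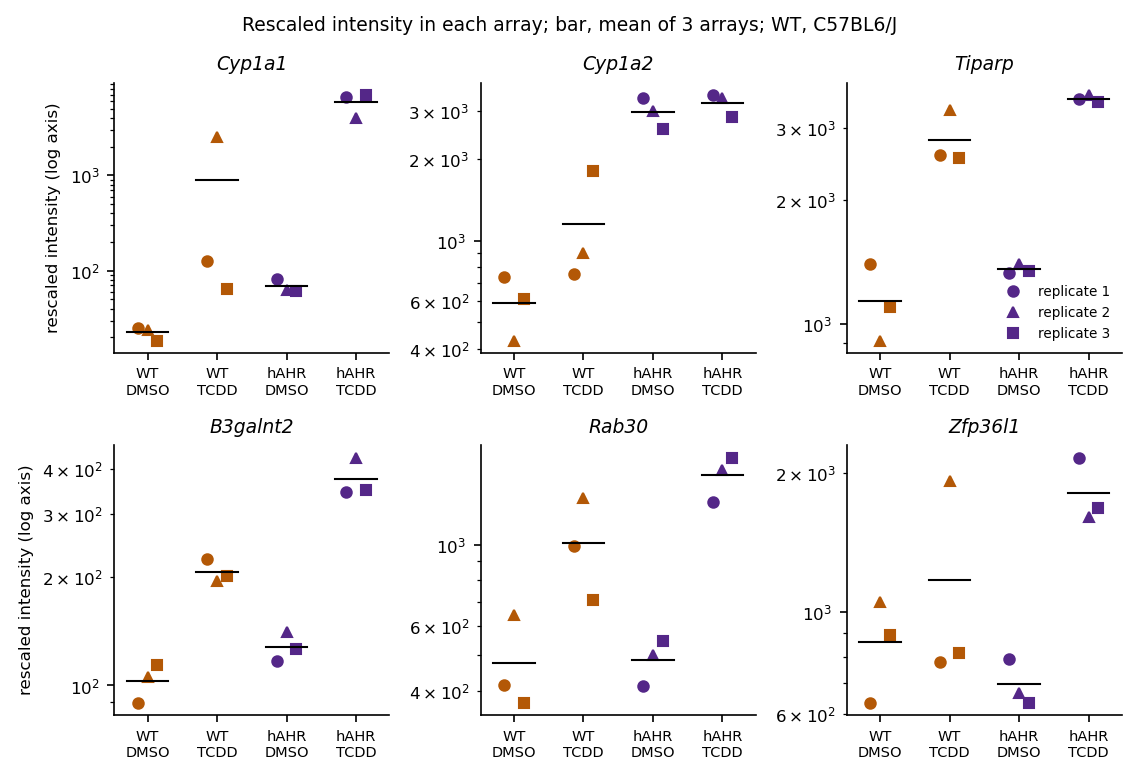
Rescaled intensity on log axes in each of the 12 arrays for 6 genes, with symbols for the replicate number and a bar for the mean of each group. For Tiparp, B3galnt2 and Rab30 the TCDD arrays of both genotypes lie above their DMSO arrays, while for Cyp1a1 and Zfp36l1 the C57BL6/J TCDD group is split between replicate 2 and the others.

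What the genotypes shared was measured by the mean of their effects. It was called for 4 genes, all higher with TCDD (0.022% of genes): Cyp1a1, Tiparp, B3galnt2 and Rab30. Tiparp read 1402, 911 and 1098 under DMSO and 2575, 3324 and 2534 under TCDD in C57BL6/J, and 1327, 1403 and 1342 under DMSO and 3538, 3609 and 3479 under TCDD in hAHR. Every TCDD array was brighter than every DMSO array, in either genotype. Tiparp rose by 1.30 (95% interval 0.97 to 1.64, adjusted p = 0.0193) in C57BL6/J and by 1.37 (95% interval 1.04 to 1.70, adjusted p = 0.00539) in hAHR, 2.47-fold and 2.59-fold. It was the one gene called in C57BL6/J, where 0.0055% of genes passed. The difference was 0.07 (95% interval -0.40 to 0.54), so a 2-fold gap between the receptors lay outside its interval, and its 3 probe sets gave differences from -0.05 to 0.07. The C57BL6/J call was lost without any 1 array other than C57BL6/J DMSO replicate 1 or TCDD replicate 3, without the intensity trend, without the replicate 2 pair, and in a fit that pairs same-numbered arrays (adjusted p = 0.101). The average over genotypes kept its call in every alternative.

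B3galnt2 encodes a glycosyltransferase that modifies alpha-dystroglycan. Its arrays read 89.5, 105 and 114 under DMSO and 226, 196 and 202 under TCDD in C57BL6/J, and 117, 140.5 and 127 under DMSO and 345, 432 and 351 under TCDD in hAHR. Both genotypes separated fully, and the hAHR TCDD arrays were the brightest. The average effect was 1.18 (95% interval 0.95 to 1.41, adjusted p = 0.000500). It rose in hAHR by 1.44 (95% interval 1.11 to 1.77, adjusted p = 0.00539), and in C57BL6/J the effect was 0.91 with an adjusted p of 0.373. The difference of 0.53 (95% interval 0.06 to 0.99, unadjusted p = 0.0288) leaned to hAHR and did not pass. The next brightest probe set gave a difference of 0.70.

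Rab30, a small GTPase of the Golgi, showed the same order of groups. Its arrays read 414, 642 and 372 under DMSO and 990.0, 1334 and 707 under TCDD in C57BL6/J, and 413, 501 and 548 under DMSO and 1307, 1594 and 1722 under TCDD in hAHR, again without overlap in either genotype. The average effect was 1.34 (95% interval 0.98 to 1.70, adjusted p = 0.0110), with 1.05 in C57BL6/J and 1.63 in hAHR. The hAHR effect was called (adjusted p = 0.0427), as were those of Cyp1a1, Tiparp and B3galnt2, together 0.022% of genes. The difference was 0.58 (95% interval -0.14 to 1.29, unadjusted p = 0.105). It was 0.35 without C57BL6/J TCDD replicate 3 or without C57BL6/J DMSO replicate 2, and 0.23 with probe sets averaged, and a dim second probe set gave -0.11. With same-numbered arrays paired, the C57BL6/J effect of Rab30 was called (adjusted p = 0.0179), and the difference had an unadjusted p of 0.00172 and an adjusted p of 0.892. With 1 array left out, the hAHR call of B3galnt2 was lost without hAHR DMSO replicate 1, hAHR DMSO replicate 3 or hAHR TCDD replicate 2, and that of Tiparp was also lost without either other hAHR TCDD array. The hAHR call of Cyp1a1 was kept only without C57BL6/J TCDD replicate 2 or 3, and that of Rab30 only without these or C57BL6/J DMSO replicate 2. Both were also lost after quantile normalization, without the intensity trend and with every probe set tested, and with probe sets averaged Tiparp alone was called in hAHR. In the average over genotypes, B3galnt2 lost its call only when probe sets were averaged (adjusted p = 0.299). Rab30 lost it then (0.181) and without any 1 of 5 arrays, namely C57BL6/J DMSO replicates 1 and 3, hAHR DMSO replicate 1 and hAHR TCDD replicates 2 and 3 (adjusted p from 0.0534 to 0.0694). Cyp1a1 kept its call without any 1 of the 3 C57BL6/J TCDD arrays and lost it without any 1 of the other 9 arrays (adjusted p from 0.0738 to 0.132), with probe sets averaged (0.0997) and without the intensity trend (0.0575).

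Beyond the called genes, 43 genes (0.236%) had TCDD arrays above DMSO arrays without overlap in both genotypes, and 19 (0.104%) had them below in both. With arrays shifted to the same median these counts were 28 and 31. Edc3, which encodes an enhancer of mRNA decapping, read 126, 132 and 135 under DMSO and 164, 241 and 188 under TCDD in C57BL6/J, and 144, 155 and 139 under DMSO and 233, 222 and 209 under TCDD in hAHR. The narrowest gap in it was between 135 and 164 in C57BL6/J. Its effects were 0.52 and 0.55, and their difference was 0.03 (95% interval -0.44 to 0.50). Rnf39 also separated in both genotypes, barely in C57BL6/J and widely in hAHR. Its arrays read 43.9, 36.8 and 29.8 under DMSO and 62.1, 56.4 and 44.6 under TCDD in C57BL6/J, and 33.4, 47.6 and 47.1 under DMSO and 129.9, 111 and 105 under TCDD in hAHR. The effect was 0.41 in C57BL6/J and 1.16 in hAHR, and the difference was 0.75 (95% interval 0.12 to 1.38, unadjusted p = 0.0223). The average effects of Edc3 and Rnf39 had unadjusted p of 0.000271 and 0.000108 and adjusted p of 0.617 and 0.328, so neither passed.

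Of the genes lower with TCDD in both genotypes, the 6 chosen by rule had average effects from -0.83 to -0.31, and none passed (adjusted p from 0.630 to 0.997). Rgs2, which was not among the 6, had a larger average effect of -1.79 in the fit with same-numbered arrays paired. Its effects there were -1.88 in C57BL6/J and -1.70 in hAHR. Adm encodes the vasodilator peptide adrenomedullin and had the largest average effect of the 6. It read 407, 941 and 566 under DMSO and 252, 287 and 380.3 under TCDD in C57BL6/J, and 758, 682 and 732 under DMSO and 471, 530.4 and 329 under TCDD in hAHR. The highest TCDD array in C57BL6/J, 380.3, lay just under the lowest DMSO array, 407. The effects were -0.96 and -0.71, and the difference was 0.25 (95% interval -0.54 to 1.03). It turned to -0.11 without the replicate 2 pair. Ankrd37, a HIF1-induced ankyrin repeat gene, read 189.6, 383 and 349.5 under DMSO and 139, 172 and 168 under TCDD in C57BL6/J, and 336, 284 and 365 under DMSO and 260.4, 252 and 245 under TCDD in hAHR. Its effect was -0.83 in C57BL6/J and -0.35 in hAHR, the most unequal pair of the 6, with a difference of 0.47 (95% interval -0.18 to 1.13, unadjusted p = 0.141). Bag2, a cochaperone of HSP70, had nearly equal effects of -0.54 and -0.58, from arrays of 327, 444 and 369.8 under DMSO and 297, 226 and 244 under TCDD in C57BL6/J, and 552, 423 and 651 under DMSO and 334, 366 and 354 under TCDD in hAHR. Bhlhe40, a transcriptional repressor of the clock, had -0.38 and -0.31. Fam174a had -0.26 and -0.36, and Tmc7, of the transmembrane channel-like family, had -0.45 and -0.38. Differences of these last 4 genes lay between -0.10 and 0.07, and each 95% interval stayed inside 1.

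**Figure D3:**
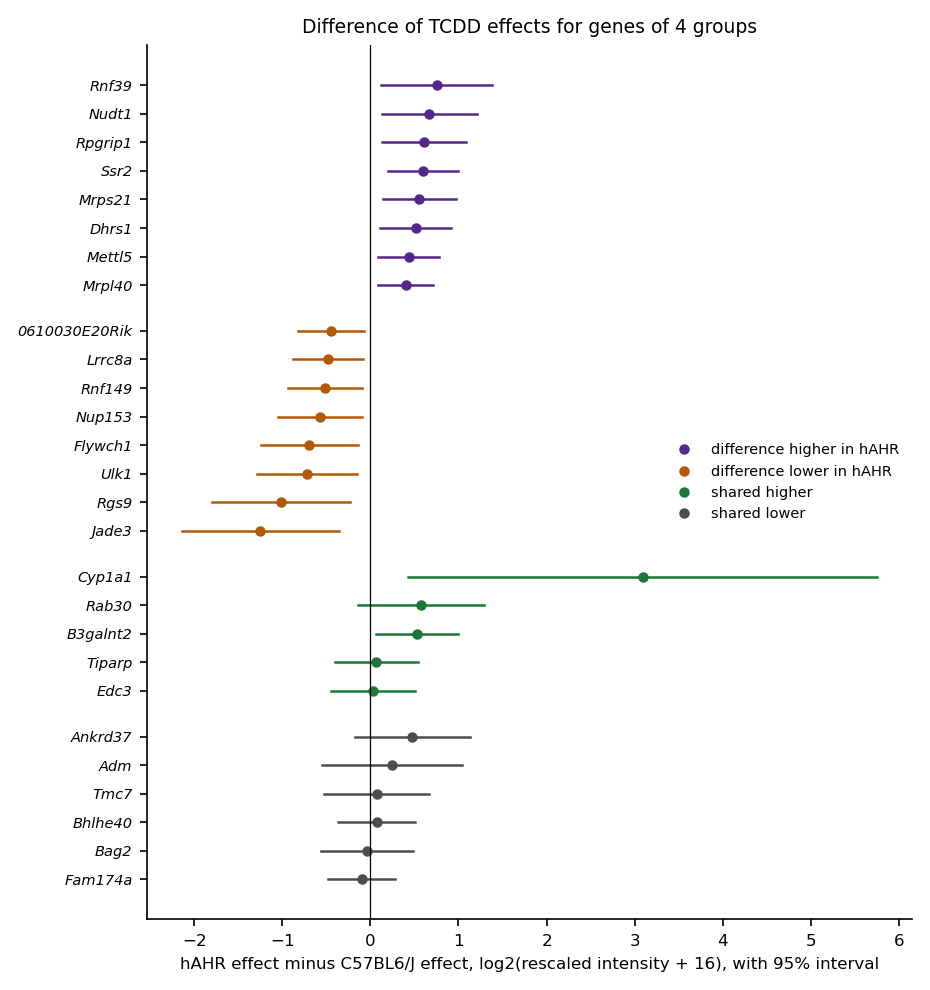
The difference of TCDD effects with its 95% interval for 27 genes in 4 groups, positive where the hAHR effect was higher. The 16 genes chosen for their difference have intervals clear of 0 before adjustment, the intervals of Tiparp, Edc3 and all 6 shared lower genes span 0, and Cyp1a1 has the widest interval.

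The measured AHR target list held 21 of 27 genes, and 9 had a positive difference, with a median of -0.08 beside -0.04 over all genes. The median was 0.02 after the shift to the same median. It ran from -0.15 to 0.16 when 1 array was left out. Cyp1a1 was the one target past an unadjusted p of 0.05 for the difference. In 13 targets both effects were positive, and in 9 the average effect was positive at an unadjusted p under 0.05, against 2.19% of all genes (3.56% in either direction). In C57BL6/J alone 6 targets were, against 3% of all genes, and in hAHR alone 7, against 1.43%; no target was negative at that p, against 1.19% and 1.46%. Median effects were 0.44 in C57BL6/J and 0.30 in hAHR, beside 0.03 and -0.01 over all genes. The members of this list were chosen with earlier results of these data known. Its surplus over all genes is therefore no independent evidence of a response. Nqo1, a quinone reductase, read 87.3, 74.5 and 68.9 under DMSO and 117, 153 and 66.0 under TCDD in C57BL6/J, and 84.1, 73.6 and 63.5 under DMSO and 136, 139.8 and 94.2 under TCDD in hAHR. Its hAHR arrays separated, and in C57BL6/J TCDD replicate 3, at 66.0, lay below all DMSO arrays. The effects were 0.41 and 0.62. Nfe2l2, which encodes the NRF2 factor that itself induces antioxidant genes, read 1727, 2216 and 2145 under DMSO and 2484, 4106 and 2079 under TCDD in C57BL6/J, and 2122, 1992 and 1871 under DMSO and 3314, 2666 and 3131 under TCDD in hAHR. It too separated in hAHR alone, with replicate 2 the brightest and replicate 3 among the DMSO arrays in C57BL6/J, and its effects were 0.45 and 0.60. Xdh, xanthine dehydrogenase of purine breakdown, read 531, 649 and 379 under DMSO and 813, 1143 and 567 under TCDD in C57BL6/J, and 481, 501 and 534 under DMSO and 703, 744 and 835 under TCDD in hAHR. In C57BL6/J the same order of replicates was seen, and the effects were 0.65 and 0.57. Its average effect passed in the fit with same-numbered arrays paired (adjusted p = 0.0181). Pmm1, a phosphomannomutase, read 635, 580.5 and 593 under DMSO and 826, 839 and 1093 under TCDD in C57BL6/J, and 734, 936 and 723 under DMSO and 840.1, 1239 and 1149 under TCDD in hAHR, separated in C57BL6/J alone, and had effects of 0.59 and 0.42. For these 4 genes the differences ran from -0.17 to 0.22, and each 95% interval stayed inside 1.

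Further targets were less even among replicates. Selenbp1, a selenium-binding methanethiol oxidase, read 855, 1796 and 867 under DMSO and 797, 3118 and 1150.0 under TCDD in C57BL6/J, and 1203, 699 and 965 under DMSO and 1504, 1111 and 2219.9 under TCDD in hAHR. Groups overlapped in both genotypes, replicate 2 was the brightest under either treatment in C57BL6/J, and the effects were 0.36 and 0.72. Gadd45b, a stress-induced growth arrest gene, read 910.2, 465 and 594 under DMSO and 918, 458 and 2116 under TCDD in C57BL6/J, and 679.5, 822 and 815 under DMSO and 831, 1141 and 913 under TCDD in hAHR. Its C57BL6/J TCDD arrays were spread from below the DMSO range to far above it, and its effects were 0.60 and 0.30. Pdk4, a kinase that inhibits pyruvate dehydrogenase, had effects of 0.79 and 0.47 with overlap in both genotypes. Slc7a5, an amino acid transporter, separated downwards in hAHR, with effects of -0.05 and -0.24. Tgm2, transglutaminase 2, had -0.16 and 0.10, and Cdkn1b, the cell cycle inhibitor p27, had -0.09 and -0.10. None of these 6 genes had an unadjusted p under 0.05 for the difference. Cyp1b1, a CYP1 enzyme best known outside the liver, had TCDD arrays of 20.7, 23.2 and 4.11 in C57BL6/J and 44.1, 3.20 and 35.5 in hAHR against at most 6.6 under DMSO. It was 1 of 8 targets with no group mean above 50, together with Ahrr, Aldh3a1, Fgf21, Cd36, Cyp2s1, Lpcat2 and Scara5, and such dim genes give little information on the logarithmic scale used. Among 23 genes of the receptor complex and its partners, 11 had a positive difference, the median was -0.02 (0.09 after the shift), and none passed an unadjusted p of 0.05. Arnt, the DNA-binding partner of AHR, had effects of -0.06 and 0.01.

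The 8 genes with the smallest p among those higher in hAHR had differences from 0.40 to 0.75 (unadjusted p from 0.00627 to 0.0223, adjusted p = 0.999 for each). Ssr2, Mrpl40 and Dhrs1 kept an unadjusted p under 0.05 in all 24 alternatives. The alternatives reuse the same arrays on genes picked for a small p, so they are no independent check. Ssr2, a subunit of the translocon-associated complex that aids entry of secretory proteins into the endoplasmic reticulum, read 982, 1138 and 1131 under DMSO and 912, 941 and 755 under TCDD in C57BL6/J, and 937, 767 and 864 under DMSO and 1131, 953 and 1043 under TCDD in hAHR. TCDD arrays lay below DMSO arrays in C57BL6/J and above them in hAHR, and the difference was 0.60 (95% interval 0.20 to 0.99, unadjusted p = 0.00627). Mrps21 and Mrpl40 encode proteins of the small and large mitochondrial ribosomal subunits. Mrps21 read 848, 919.9 and 1082 under DMSO and 766, 812 and 591 under TCDD in C57BL6/J, and 765, 702 and 755 under DMSO and 852, 804 and 838 under TCDD in hAHR. Mrpl40 read 774, 829 and 858 under DMSO and 684, 666 and 635 under TCDD in C57BL6/J, and 779, 744 and 747 under DMSO and 794, 839 and 799 under TCDD in hAHR. Both separated in opposite directions, with differences of 0.56 (95% interval 0.14 to 0.97) and 0.40 (95% interval 0.09 to 0.71). Mettl5, which methylates ribosomal RNA, read 676, 655 and 686 under DMSO and 536, 582 and 579.5 under TCDD in C57BL6/J, and 584, 503 and 590.2 under DMSO and 606, 696 and 620.4 under TCDD in hAHR, and its difference was 0.44 (95% interval 0.09 to 0.78). A dim second probe set of Mrps21 gave -0.04. Dhrs1, a short-chain dehydrogenase, separated in C57BL6/J alone, where it read 675, 656 and 874 under DMSO and 588, 607 and 606 under TCDD, and its effects were -0.27 and 0.24. Nudt1, which clears oxidised purine nucleotides, overlapped in both genotypes, with effects of -0.34 and 0.33. Rpgrip1, known for its role in photoreceptor cilia, had -0.26 and 0.35 on its brightest probe set. Its 3 dim probe sets had negative differences, and the mean over its probe sets turned to -0.10.

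The 8 genes with the smallest p among those lower in hAHR had differences from -1.25 to -0.44 (unadjusted p from 0.00960 to 0.0229, adjusted p = 0.999 for each). Jade3, a PHD finger protein of histone acetyltransferase complexes, read 84.3, 59.2 and 53.4 under DMSO and 121, 117 and 187 under TCDD in C57BL6/J, and 77.7, 204 and 118 under DMSO and 101, 114 and 79.9 under TCDD in hAHR. Its TCDD arrays lay above DMSO in C57BL6/J and overlapped with DMSO in hAHR, where replicate 2 under DMSO was the brightest. The difference of -1.25 (95% interval -2.14 to -0.36, unadjusted p = 0.00960) kept an unadjusted p under 0.05 in all 24 alternatives, and was the one of these 8 to do so. Rgs9, which speeds GTP hydrolysis by G proteins, read 72.4, 63.8 and 96.3 under DMSO and 123, 116 and 59.7 under TCDD in C57BL6/J, and 123, 99.0 and 101 under DMSO and 72.4, 43.4 and 59.5 under TCDD in hAHR. It separated in hAHR alone, downwards, and its difference was -1.02 (95% interval -1.80 to -0.24). Ulk1, the kinase that starts autophagy, read 413, 474 and 278 under DMSO and 384, 396 and 499.9 under TCDD in C57BL6/J, and 507, 611 and 499.8 under DMSO and 317, 406 and 355 under TCDD in hAHR. It too separated downwards in hAHR alone, with effects of 0.15 and -0.57 and a difference of -0.72 (95% interval -1.29 to -0.15), which was -0.39 on the mean of its 2 probe sets. Flywch1, a zinc finger gene, had effects of 0.32 and -0.38, and Lrrc8a, a subunit of the volume-regulated anion channel, had 0.25 and -0.23. Both separated in hAHR alone. Nup153, a nuclear pore protein, separated in C57BL6/J alone, where it read 447, 414 and 453 under DMSO and 664, 487 and 687 under TCDD, and its effects were 0.45 and -0.11. Averaging its 3 probe sets brought the difference from -0.57 to -0.05.

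Opposite separation of the arrays was found for 62 genes, no more than the 62 that separated in the same direction in both genotypes. Whether either count exceeds that of unrelated effects in the genotypes was not tested. Of the genes with opposite separation, 44 (0.242%) had TCDD arrays above DMSO in C57BL6/J and below in hAHR. In the other 18 (0.0989%) the reverse was seen. With arrays shifted to the same median the counts were 15 and 37, and after quantile normalization 29 and 27, so which side held more genes depended on the scaling. In each genotype alone, TCDD arrays lay above DMSO arrays for 6.19% of genes in C57BL6/J and 3.35% in hAHR, and below for 2.81% and 3.85%. With 3 arrays in each group, a share of genes separates by the order of arrays alone. Separation of a gene is therefore a description and no test of a response. Of the genes that separated in C57BL6/J, 68.8% were higher with TCDD, against 30.3% after the shift to the same median and 53.6% after quantile normalization. At an unadjusted p under 0.05 in each genotype, 33 genes were higher in both, 9 lower in both, 16 higher in C57BL6/J and lower in hAHR, and 8 the reverse. Separation in a single genotype was seen upwards for 1039 genes (5.71%) and downwards for 474 (2.61%) in C57BL6/J, and for 548 (3.01%) and 638 (3.51%) in hAHR. Most genes, 15370 (84.5%), overlapped in both genotypes. An unadjusted p under 0.05 was reached by 4.18% of genes in C57BL6/J and 2.9% in hAHR. Among genes with a mean of at least 100 in some group, 17 separated upwards and 8 downwards in both genotypes, against 7 and 5 with opposite separation.

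**Figure D4:**
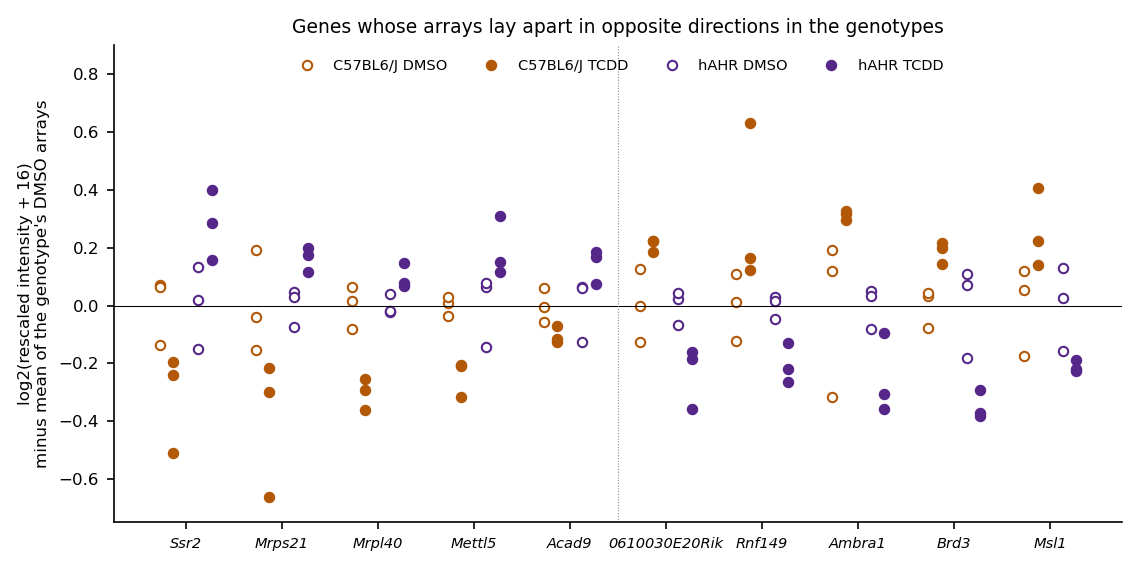
Each array's log2(rescaled intensity + 16), less the mean of its genotype's DMSO arrays, for the 10 genes chosen among those with opposite separation, open symbols for DMSO and filled ones for TCDD. Left of the dotted line the TCDD arrays are lower in C57BL6/J and higher in hAHR, and right of it the reverse.

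Among the 5 genes lower with TCDD in C57BL6/J and higher in hAHR, Acad9, an assembly factor of respiratory complex I, joined Ssr2, Mrps21, Mrpl40 and Mettl5. It read 338, 311 and 322 under DMSO and 308, 298 and 296 under TCDD in C57BL6/J, and 313, 272 and 312 under DMSO and 315, 338 and 342 under TCDD in hAHR. Its difference of 0.25 (95% interval -0.11 to 0.60, unadjusted p = 0.161) was the smallest of the group, and it turned to -0.23 when its 3 probe sets were averaged. On the other side, Rnf149, a membrane-bound ubiquitin ligase, read 1307, 1223 and 1110.5 under DMSO and 1361, 1320.1 and 1887 under TCDD in C57BL6/J, and 1505, 1493 and 1428 under DMSO and 1266, 1225 and 1348 under TCDD in hAHR. In C57BL6/J the gap from 1307 to 1320 was narrow, and replicate 3 lay well above the other TCDD arrays. The difference was -0.51 (95% interval -0.93 to -0.09, unadjusted p = 0.0207). 0610030E20Rik, a gene with no assigned name, read 297, 270.3 and 246 under DMSO and 318, 318 and 309.6 under TCDD in C57BL6/J, and 343, 367 and 372 under DMSO and 315, 321 and 278 under TCDD in hAHR, with a difference of -0.44 (95% interval -0.82 to -0.07). Ambra1, a regulator of autophagy upstream of ULK1, read 184, 174 and 124 under DMSO and 203, 198 and 202 under TCDD in C57BL6/J, and 199.6, 197 and 181 under DMSO and 152, 179 and 147 under TCDD in hAHR. The difference was -0.57 (95% interval -1.05 to -0.08, unadjusted p = 0.0261). Brd3, a BET family reader of acetylated histones, had effects of 0.19 and -0.35 and a difference of -0.54 (95% interval -1.01 to -0.06, unadjusted p = 0.0294), and all 4 of its probe sets gave a negative value. Msl1, a scaffold of an H4 acetyltransferase complex, had 0.26 and -0.21. Of its 4 probe sets, 2 gave a positive difference. None of these 10 passed adjustment (adjusted p = 0.999).

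Zfp36l1 encodes a protein that destabilises mRNAs with AU-rich elements and was 1 of 33 immediate early genes measured. It read 635, 1052 and 891 under DMSO and 777, 1925 and 816 under TCDD in C57BL6/J, and 791, 667 and 636 under DMSO and 2163, 1603 and 1680.3 under TCDD in hAHR. The hAHR arrays separated widely, and in C57BL6/J replicate 2 under TCDD lay within the range of the hAHR TCDD arrays while replicates 1 and 3 lay within the DMSO range. The effects were 0.34 and 1.35, and the difference was 1.01 (95% interval 0.13 to 1.90, unadjusted p = 0.0280). The difference was 1.43 without C57BL6/J TCDD replicate 2 (adjusted p = 0.631) and 1.27 without the replicate 2 pair (adjusted p = 0.951). Its other probe set gave 0.78. The hAHR effect was called with same-numbered arrays paired (adjusted p = 0.0362), without C57BL6/J TCDD replicate 2 and without both replicate 2 arrays, and not otherwise. Sgk1, a kinase induced by glucocorticoids, read 1776, 1886 and 1620.1 under DMSO and 2266, 2256 and 2789.9 under TCDD in hAHR, where it separated upwards, and its difference was 0.71 (95% interval 0.10 to 1.32, unadjusted p = 0.0263). Fosb, an AP-1 subunit, was dim and lay lower with TCDD in hAHR, with a difference of -1.07 (95% interval -2.06 to -0.09). Of the 33 genes, 14 had a positive difference and 3 passed an unadjusted p of 0.05, with a median of -0.09, which was 0.01 after the shift to the same median.

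Of the 30 lists measured, cholesterol synthesis had the median difference furthest from 0. Of 20 measured, 17 had a positive difference, against 8025 of 18193 genes, and the median was 0.37 beside -0.04. The genes of a list were read on the same arrays and can move together. Counts like this, here and for the other lists, are therefore no test. Medians of the effects were -0.26 in C57BL6/J and 0.02 in hAHR. In 11 genes the effect was negative in C57BL6/J and positive in hAHR. None passed an unadjusted p of 0.05. Fdps, which makes farnesyl diphosphate, read 1176, 2600.1 and 2738 under DMSO and 1112, 1971 and 796 under TCDD in C57BL6/J, and 1945, 791 and 1092 under DMSO and 1928, 777 and 1295 under TCDD in hAHR. Arrays within each group differed widely, and the groups overlapped in both genotypes. Its difference was 0.81 (95% interval -0.50 to 2.12). Fdft1, squalene synthase, had 0.72 (95% interval -0.50 to 1.94), and Dhcr7, a late enzyme of the pathway, had 0.64 (95% interval -0.39 to 1.67). The list median stayed positive when any 1 array was left out, from 0.20 without hAHR DMSO replicate 2 to 0.56 without hAHR TCDD replicate 2. The list mean on the logarithmic scale was 9.16, 9.66 and 9.58 under DMSO and 9.08, 9.53 and 8.82 under TCDD in C57BL6/J. In hAHR the list mean was 9.46, 8.81 and 9.10 under DMSO and 9.37, 8.84 and 9.23 under TCDD. These means overlapped between treatments in both genotypes, and the lowest in C57BL6/J was that of TCDD replicate 3.

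**Figure D5:**
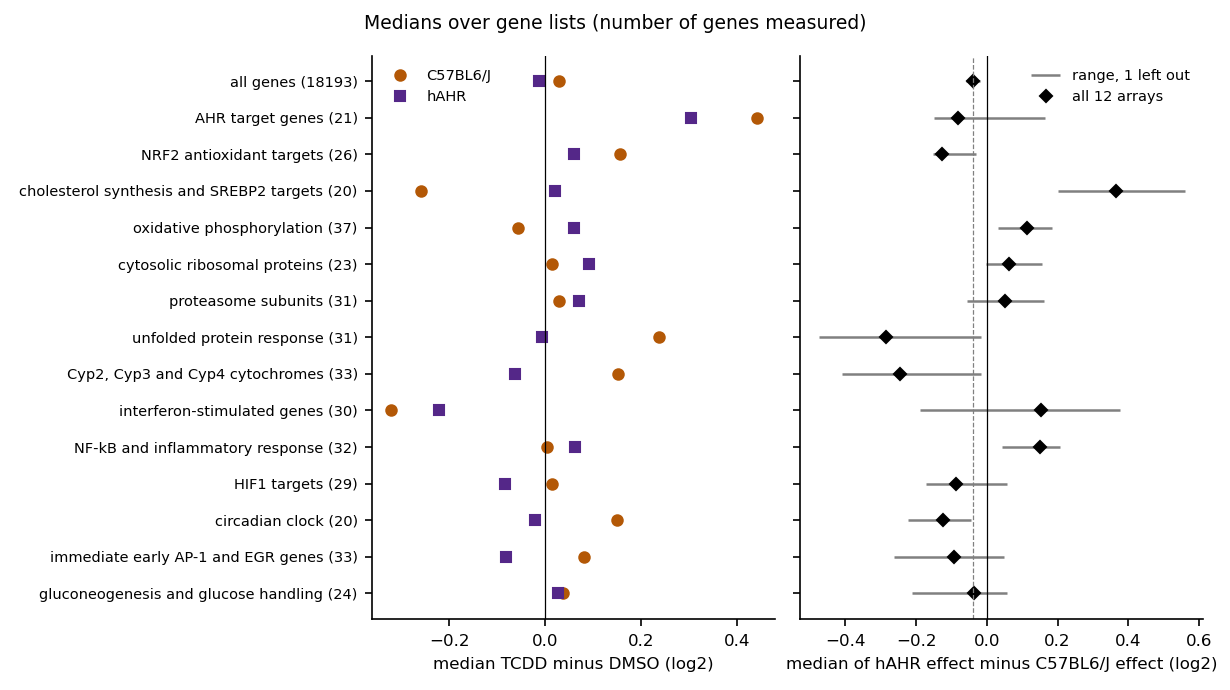
Medians over 14 gene lists and over all genes of the TCDD effect in each genotype (left) and of the difference of effects (right), with the range of the latter when any 1 array is left out. Cholesterol synthesis lies furthest to the right at 0.37, the unfolded protein response furthest to the left at -0.29, and the dashed line marks the median of all genes.

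Genes of the unfolded protein response, which raise chaperone capacity of the endoplasmic reticulum, leaned the other way. Only 3 of 31 had a positive difference, and the median was -0.29, with effects of 0.24 in C57BL6/J and -0.01 in hAHR. In 17 the effect was positive in C57BL6/J and negative in hAHR. Hyou1, a chaperone of the lumen, read 281, 323 and 528 under DMSO and 578, 226 and 635 under TCDD in C57BL6/J, and 550.1, 720.1 and 479.5 under DMSO and 571, 274 and 368 under TCDD in hAHR, overlapping in both genotypes, and its difference was -0.81 (95% interval -1.91 to 0.29). Ern1, the IRE1 sensor, had -0.39 (95% interval -0.88 to 0.10), and Calr, calreticulin, had -0.28 (95% interval -0.66 to 0.09). None of the 31 passed an unadjusted p of 0.05. Without C57BL6/J TCDD replicate 2 the median was -0.48, and without C57BL6/J TCDD replicate 3 it was -0.02, so the lean rested largely on that array. The same array had the highest sum over the lymphocyte and neutrophil markers, 1475.5 against 253 and 490.3 in the other C57BL6/J TCDD arrays, 244 to 492 under DMSO in C57BL6/J, and 258 to 671 in hAHR. Ighm, the immunoglobulin mu chain, made up 1221 of that sum, and the other 17 markers each read at most 47.6 there. Among these, the B cell gene Cd79a read 30.2, the highest of all 12 arrays, while the leukocyte gene Ptprc and the T cell genes Cd3e and Cd4 read 0.45, 4.86 and 2.58. Its part in the result was not tested.

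The difference was small but mostly positive for mitochondrial genes. Of 37 subunits of oxidative phosphorylation, 33 had a positive difference, and in 23 the effect was negative in C57BL6/J and positive in hAHR. The median was 0.11, and 0.03 without C57BL6/J DMSO replicate 3. Ndufb3, a complex I subunit, read 1100.4, 1111 and 1275 under DMSO and 989, 929.8 and 1142 under TCDD in C57BL6/J, and 996, 906 and 986 under DMSO and 1112, 1080.5 and 1014 under TCDD in hAHR. It separated in hAHR alone, and its difference was 0.34 (95% interval -0.02 to 0.69, unadjusted p = 0.0623). Ndufs4, also of complex I, had 0.37 (95% interval -0.08 to 0.83), but its 3 other probe sets did not share the sign. For cytosolic ribosomal proteins 21 of 23 differences were positive with a median of 0.06, and for proteasome subunits 24 of 31 with 0.05. Leaving out a single array brought the ribosomal median to between -0.00 and 0.16 and the proteasome median to between -0.06 and 0.16.

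Cytochromes of the Cyp2, Cyp3 and Cyp4 families had 8 positive differences of 33 and a median of -0.25. The median was -0.02 without C57BL6/J TCDD replicate 3 and -0.43 without the replicate 2 pair. Cyp2c39 was the one gene past an unadjusted p of 0.05, and it was dim, with no group mean above 18.6. Cyp2c37 read 381, 451 and 419 under DMSO and 372, 359 and 366 under TCDD in hAHR, where it separated downwards, and had a difference of -0.31 (95% interval -0.92 to 0.29). Of 30 interferon-stimulated genes, 24 had negative effects in both genotypes, against 4409 of 18193 genes. Median effects were -0.32 in C57BL6/J and -0.22 in hAHR. In C57BL6/J the list mean of log2(rescaled intensity + 16) was 8.51, 8.82 and 8.39 under DMSO and 8.38, 8.77 and 7.62 under TCDD. The lean in C57BL6/J thus rested largely on TCDD replicate 3. The median difference was 0.15. It turned to -0.19 without C57BL6/J TCDD replicate 3 and was 0.38 without C57BL6/J TCDD replicate 2. Ifi35 had 0.33 (95% interval -0.19 to 0.84), which was 0.13 without C57BL6/J TCDD replicate 3. Mx2, an antiviral GTPase, had -0.62 (95% interval -1.68 to 0.43), which was -0.29 without C57BL6/J DMSO replicate 3. Antioxidant targets of NRF2 leaned up in both, with both effects positive in 16 of 26 and medians of 0.16 in C57BL6/J and 0.06 in hAHR. Cbr3, a carbonyl reductase, had effects of 0.23 and 0.61, and Gclm, of glutathione synthesis, 0.58 and 0.05.

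Among 20 clock genes the median difference was -0.12, from -0.22 to -0.04 with 1 array left out, and 6 were positive. Ciart, a circadian repressor, read 32.9, 7.00 and 39.8 under DMSO and 63.9, 35.2 and 138 under TCDD in C57BL6/J, and 57.5, 84.0 and 77.4 under DMSO and 53.6, 56.0 and 44.7 under TCDD in hAHR. Its difference of -1.50 (95% interval -2.68 to -0.32, unadjusted p = 0.0165) was the largest on the list, and replicate 2 under DMSO was the dimmest array in C57BL6/J. Per1 had -0.63 (95% interval -1.29 to 0.03, unadjusted p = 0.0600). Of 24 genes of glucose handling, Irs1, an insulin receptor substrate, read 32.6, 70.4 and 24.8 under DMSO and 68.3, 142 and 111 under TCDD in C57BL6/J, and 34.6, 36.6 and 49.0 under DMSO and 39.7, 39.8 and 45.8 under TCDD in hAHR. Its effect was 1.10 in C57BL6/J, where the groups overlapped by 1 array, and 0.05 in hAHR. The difference was -1.05 (95% interval -1.95 to -0.15, unadjusted p = 0.0261). G6pc, glucose-6-phosphatase, separated upwards in C57BL6/J, with a difference of -1.23 (95% interval -2.77 to 0.30). HIF1 targets had negative effects in both genotypes in 12 of 29 cases, with a median difference of -0.09, or 0.02 after the shift. Of the 32 inflammatory genes measured, 21 had a positive difference, and the median was 0.15, from 0.04 to 0.21 with 1 array left out and 0.25 after quantile normalization. In that list Stat3 was the one gene past an unadjusted p of 0.05, at -0.45 (95% interval -0.89 to -0.01, unadjusted p = 0.0461). The 9 other lists of liver functions, among them conjugation enzymes, fatty acid oxidation, lipogenesis, bile acids and secreted proteins, had median differences from -0.10 to 0.12. In each list, 0 genes were called for the difference.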

How the data were processed

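A set of 12 arrays was measured, with 45101 probe sets each, and the deposited values are linear signal intensity, made by the authors with the PLIER method in Affymetrix Expression Console 1.1 per the submitters' processing notes and design text. The authors scaled 9 arrays to a 2% trimmed mean of 150 and the C57BL6/J TCDD arrays to 500, as the values show, and all were rescaled here to 150 and taken as log2(intensity + 16). After control probe sets (64) were removed, the 34945 probe sets with 1 gene symbol in GEO's platform annotation gave 18193 genes, each by its brightest probe set, and 932 probe sets with several symbols and 9160 with none were not used. limma 3.58.1 (R 4.3.3) fitted the 4 groups together by lmFit and eBayes with an intensity trend and 8 residual degrees of freedom, testing the difference of effects, their average and each genotype's effect, with Benjamini-Hochberg adjustment over all genes and a threshold of 0.05. No pair of arrays was identical. The number of arrays limits the precision. The genes named are all called genes, the 8 with the smallest p for the difference in each direction, the 6 for the average among genes that separate alike in both genotypes, the 5 for the difference in each orientation among genes that separate oppositely (all with a group mean of at least 100), the AHR targets, and up to 3 of each list, and Alb, Ahr and Arnt. Xist, Eif2s3y, Ighm, Cyp2c39 and the other lymphocyte markers were chosen after their values were seen. Rgs2 was named because it was called in the fit with same-numbered arrays paired. The members and lists were chosen with earlier results of these data known. Alternatives were other offsets, scalings, filters, probe set rules and variance models, paired arrays, and arrays left out. The fit was also run on simulated data with independent noise and the same spread in every group. The arrays here had unequal spread and correlated deviations, so that run is no check of these results. Promoter windows come from RefSeq's GRCm38.p6 annotation and were matched by symbol, and no genome sequence was used.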

Additional observations from a re-analysis of the deposited data

How the results depend on the processing

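Results were computed under 24 alternatives, 12 of which left out 1 array, and Fosb under 23, since it was among the dimmest genes left out. The count of genes called for the difference was 0 throughout, except that it was 1 (Cyp1a1) without C57BL6/J TCDD replicate 2 and 1 with both C57BL6/J replicate 2 arrays left out, a range of 0 to 1 over arrays left out. The count called in the average over genotypes was 1 with the mean over probe sets and 2 to 5 with 1 array left out. In C57BL6/J the count was 2 with array weights, 0 without the intensity trend, 0 without the replicate 2 pair, and 0 to 1 with 1 array left out. In hAHR it was 2 with every probe set tested, without the trend and after quantile normalization, 1 with the mean over probe sets, 6 with array weights, 6 without the replicate 2 pair and 0 to 6 with 1 array left out.

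Counts of genes whose arrays separated varied with most settings. With 1 array left out, they ran from 70 to 128 for shared higher, 35 to 62 for shared lower, 28 to 61 for opposite with hAHR higher and 73 to 170 for opposite with hAHR lower, since fewer arrays overlap less often. In the same order they were 28, 31, 37 and 15 with all arrays at the same median, 117, 88, 102 and 148 without the replicate 2 pair, 27, 12, 7 and 14 without the dimmest 40% of genes, and 87, 44, 33 and 83 with every probe set tested. Quantile normalization gave 34 shared lower, 27 opposite with hAHR higher and 29 opposite with hAHR lower, and an unadjusted p under 0.05 in each genotype gave 9, 8 and 16.

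Differences of uncalled genes that changed sign were mostly small. Array weights gave -0.0122 for Bhlhe40, 0.17 for Cdkn1b and -0.0795 for Tmc7. The shift to a common median gave 0.0645 for Bag2, 0.0958 for Cdkn1b, 0.00840 for Fam174a and 0.0236 for Xdh. Leaving out the replicate 2 pair gave -0.11 for Adm, -0.12 for Arnt, -0.15 for Bhlhe40 and 0.00130 for Cdkn1b. The mean over probe sets gave -0.23 for Acad9, -0.0621 for Arnt, -0.0814 for Ndufs4, -0.17 for Nfe2l2 and -0.10 for Rpgrip1. Quantile normalization gave 0.0256 for Cdkn1b. With 1 array left out the difference ran from -0.0704 to 0.52 for Adm, from -0.22 to 0.48 for Ahr, from -0.0670 to 0.28 for Arnt, from -0.20 to 0.0980 for Bag2, from -0.0712 to 0.16 for Bhlhe40, from -0.21 to 0.24 for Cdkn1b, from -0.0874 to 0.17 for Edc3, from -0.82 to 0.27 for Gadd45b, from -0.0607 to 0.43 for Nfe2l2, from -0.0725 to 0.45 for Nqo1, from -0.0543 to 0.92 for Selenbp1, from -0.82 to 0.19 for Slc7a5, from -0.0916 to 0.22 for Tiparp, from -0.0703 to 0.23 for Tmc7 and from -0.33 to 0.16 for Xdh. The cause of these changes was not tested.

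Arrays of the same number were set together as a replicate block within each genotype, which called 0 genes for the difference, 6 in the average, 1 in C57BL6/J (Rab30 in place of Tiparp) and 5 in hAHR. The average then also called Rgs2 (-1.79, adjusted p = 0.0181) and Xdh (0.61, adjusted p = 0.0181). Deviations from the group mean were correlated over 10916 genes between same-numbered DMSO and TCDD arrays. The values were 0.393, 0.481 and 0.358 in hAHR and 0.409, 0.674 and 0.0707 in C57BL6/J. In C57BL6/J, DMSO replicate 1 and TCDD replicate 3 correlated at 0.407, as closely as the replicate 1 pair. Only in hAHR did every same-numbered pair deviate together more than pairs of unlike number. Signal near background limits the dim genes, and 3 arrays in a group limit all differences.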
